A study of Mus musculus with 12 samples.

Results

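Expression of 9 genes of interferon reception was followed in mouse skin after an injection of RNAdjuvant, an RNA-based vaccine adjuvant in which a carrier peptide holds the RNA. The genes encode the receptor chains Ifnar1, Ifnar2, Ifngr1 and Ifngr2, the kinases Jak1, Jak2 and Tyk2, and the transcription factors Stat2 and Irf9. They were chosen by symbol: a member is a probe set whose only platform symbol is 1 of these names. All 9 were measured, each by 1 probe set, among 19938 genes. The samples were skin biopsies of female Balb/c mice, of which 3 came from mice left untreated. The other 9, in groups of 3, were removed 1.5 h, 6 h or 24 h after RNAdjuvant went into the dermis, at a dose of 25 mg as labelled, whose unit was not checked here. The labels call the numbered samples biological replicates and name no litter or batch, so p-values measure the spread between these samples. Every group is of 1 strain and sex, the age of the mice is not given in the sources used here, and skin injected with only the vehicle was not analysed here. The values are log2 array intensities, so 1 log2 unit is a doubling.

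Interferon alpha and beta bind a receptor of the chains IFNAR1 and IFNAR2, which carry the kinases TYK2 and JAK1. Interferon gamma binds a receptor of IFNGR1 and IFNGR2, which carry JAK1 and JAK2. The kinases phosphorylate STAT proteins, and STAT2 joins IRF9 in the complex ISGF3, which binds the interferon-stimulated response element (ISRE) of antiviral genes, while interferon gamma acts mainly through gamma-activated sites (GAS). In skin, keratinocytes, fibroblasts, endothelium and resident leukocytes carry these receptors.

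The arrays had medians between 5.53 and 5.76, and arrays of 1 group correlated at r = 0.98 to 0.987. Arrays of different groups correlated at r = 0.961 to 0.986, and these ranges overlapped. The labelled tissue was borne out by its markers: the basal keratin gene Krt5 lay between 11.9 and 12.15 and the suprabasal keratin gene Krt10 between 12.39 and 12.67 in all 12 arrays. In 1.5 h replicate 1 and 6 h replicate 1 the lymph node vessel gene Glycam1 measured 11.38 and 10.88, against 3.87 to 4.46 elsewhere, and list counts against untreated skin were also taken without both. The summed level of 8 glandular epithelium genes was 8.79 to 8.89 (log2) in untreated skin, 10.43 to 11.69 at 1.5 h, 8.89 to 11.38 at 6 h and 10.35 to 10.84 at 24 h.

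Of the 9 genes, the transcription factor genes Stat2 and Irf9 rose at 6 h and at 24 h, the kinase gene Jak2 rose at 6 h and the receptor gene Ifnar2 rose at 24 h. None of the 9 passed the test at 1.5 h. A gene is said to have changed where limma gave an adjusted p under 0.05, the adjustment being Benjamini-Hochberg's over the 19938 genes. At 1.5 h the count was 0 of 9 (2 at an unadjusted p under 0.05, Ifngr2 and Tyk2), where 2.20% of all genes changed, 0.612% up and 1.59% down. At 6 h 3 of 9 rose, where 6.09% of all genes changed, 3.38% up and 2.71% down. At 24 h 3 of 9 rose, where 3.36% of all genes changed, 2.55% up and 0.808% down. The median change of the 9 genes was 0.01, 0.12 and 0.28 log2 units at the 3 times, beside medians of 0.02, -0.04 and 0.00075 over all genes. The values of 1, 4 and 3 of the 9 genes did not overlap those of untreated skin at 1.5 h, 6 h and 24 h, beside 25.1%, 30.8% and 23.3% of all genes. These comparisons share the same 3 untreated arrays.

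Between times, 4 of 9 rose and 2 fell from 1.5 h to 6 h, where 13.3% of all genes changed, 5.47% up and 7.80% down. From 6 h to 24 h 1 of 9 fell (3.44% of all genes changed, 2.03% up and 1.41% down), and 3 of 9 were higher at 24 h than at 1.5 h (2.91% of all genes changed, 2.24% up and 0.667% down). Ranges did not overlap for 6, 7 and 5 of the 9 genes in these comparisons, beside 33.0%, 23.5% and 18.9% of all genes. The moderated F statistic of a change at any time called 5 of 9, namely Ifnar2, Ifngr2, Jak2, Stat2 and Irf9, where 11.4% of all genes changed.

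**Figure D1:**
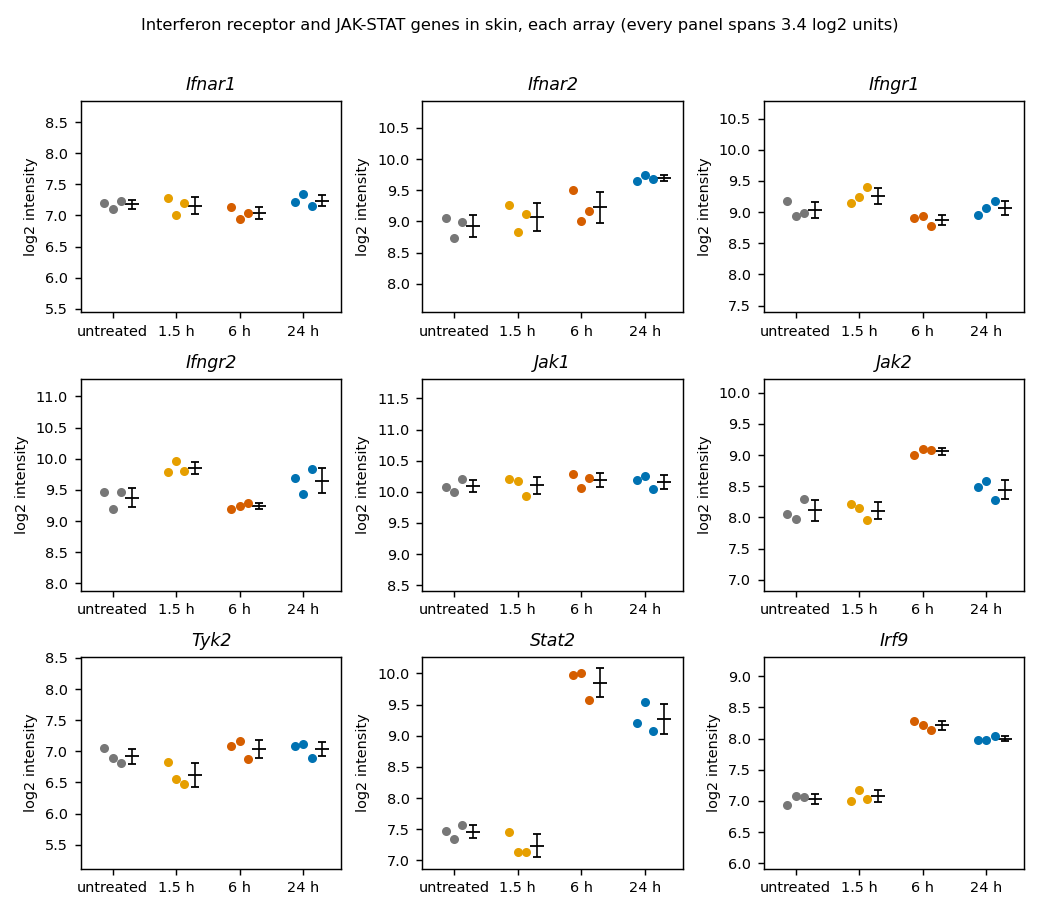
Log2 intensity of the 9 genes (vertical axis, every panel spans 3.4 log2 units) in each of the 12 arrays, by group (horizontal axis); coloured points are arrays, black marks the mean and SD of 3. Stat2 and Irf9 stand above untreated skin in every array at 6 h and 24 h, Jak2 at 6 h and Ifnar2 at 24 h, while Ifnar1 and Jak1 stay within 6.95 to 7.34 and 9.94 to 10.29.

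**Figure D2:**
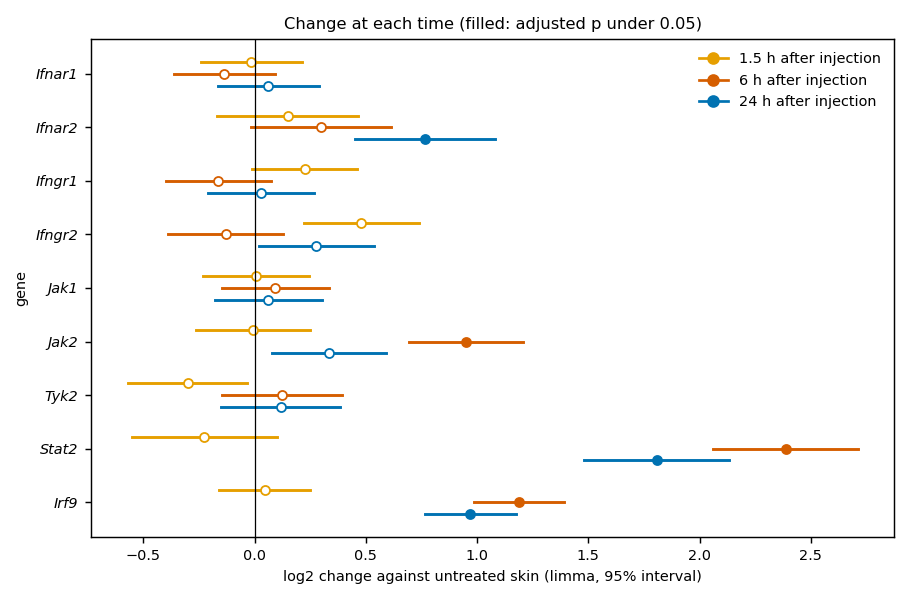
Log2 change of each gene (vertical axis) against untreated skin (horizontal axis) with its 95% interval from limma, in 1 colour for each time; filled points passed an adjusted p of 0.05. Filled points are those of Stat2 and Irf9 at 6 h and 24 h, Jak2 at 6 h and Ifnar2 at 24 h.

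Among the receptor genes of interferon alpha and beta, Ifnar2 (probe set 10436830) rose at 24 h and Ifnar1 (probe set 10436849) did not pass the test at any time. Ifnar2 measured 9.06, 8.73 and 8.99 in the 3 untreated arrays and 9.27, 8.83 and 9.12 at 1.5 h. It measured 9.5, 9.01 and 9.17 at 6 h and 9.65, 9.75 and 9.68 at 24 h. All 3 values at 24 h lay above the other 9, and the groups before it overlapped. From untreated skin to 24 h Ifnar2 rose 1.7-fold, with a 95% interval of 1.37 to 2.11, from 8.93 ± 0.17 to 9.69 ± 0.05 (SD, n = 3, adjusted p = 0.00853). That call was lost without untreated replicate 2 (adjusted p = 0.0514) and without moderation of the variance (0.0531). The order of the means was untreated, 1.5 h, 6 h and 24 h, and no neighbours in it passed the test, with adjusted p = 0.645, 0.523 and 0.098. The step from 6 h to 24 h did pass in 2 of 25 alternatives. These left out 6 h replicate 1 (adjusted p = 0.0371) or the libraries high in Glycam1 (0.0292). Between 1.5 h and 24 h Ifnar2 rose 1.53-fold (adjusted p = 0.0373), a call lost in 10 of 25 alternatives, 6 of them without 1 library, namely untreated replicate 3, 1.5 h replicate 2 or 3, or any of the 24 h libraries (highest adjusted p 0.177, without 1.5 h replicate 2).

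Some leukocyte markers were also higher at 24 h. Ptprc, the pan-leukocyte surface phosphatase CD45, measured 8.1, 7.82 and 8.25 in untreated skin and 9.03, 9.33 and 9.26 at 24 h, and rose 2.22-fold (adjusted p = 0.00718). At 6 h, when Ifnar2 did not pass (adjusted p = 0.236), Ptprc measured 9.21, 8.71 and 8.91 and had risen 1.84-fold (adjusted p = 0.0270), a call lost when replicate 1 or 2 of untreated skin, or 1 or 3 of 6 h, was left out. Of 9 natural killer cell markers 8 rose at 24 h, and their summed level went from 7.73 to 7.84 (log2) in untreated arrays to 10.54 to 10.92. Of 10 monocyte and macrophage markers 3 rose, with summed levels of 12.54 to 13.06 and 12.97 to 13.35. Of 9 neutrophil markers 3 rose (2 to 5 with 1 library left out, and 5 without the libraries high in Glycam1), while 0 of 9 T cell and 0 of 8 B cell markers passed in limma. Without the libraries high in Glycam1, 8 natural killer, 4 monocyte and macrophage, 1 T cell and 0 B cell markers rose at 24 h. The part of these cells in the Ifnar2 value was not tested, and in a biopsy more cells of a type cannot be told apart from more RNA per cell. The 3 genes most like Ifnar2 over the 12 arrays were Hcls1, a signalling adaptor of blood cells (r = 0.973), the lysosomal protease gene Ctsz (r = 0.973) and Fyb, an adaptor of T cells and myeloid cells (r = 0.97). Within groups, after subtracting group means, they gave r = 0.899, 0.901 and 0.9. These r values include the arrays high in Glycam1, 1.5 h replicate 1 and 6 h replicate 1, which held the highest Ifnar2 value of their group. The 12 arrays fall into 4 groups and share their depth of signal, so each r is a description.

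Ifnar1 lay between 6.95 and 7.34 in all arrays. Its changes were -0.02, -0.14 and 0.06 log2 units at 1.5 h, 6 h and 24 h, with 95% intervals of -0.24 to 0.21, -0.36 to 0.09 and -0.17 to 0.29 (adjusted p = 0.957, 0.452 and 0.82). A rise of Ifnar1 by more than 0.29 log2 units thus lay outside all 3 intervals. The order of its means was 6 h, 1.5 h, untreated and 24 h, and no pair of groups passed the test. The log2 ratio of Ifnar2 over Ifnar1 within an array, read here for its change and not for the level of 1 gene against another, was 1.86, 1.63 and 1.75 in untreated skin and 2.43, 2.41 and 2.52 at 24 h. It rose by 0.7 log2 units, with no overlap of the groups. The exact two-sided permutation test gave p = 0.1, the smallest that 3 against 3 samples allow, and 0.2 after Benjamini-Hochberg adjustment over the 12 ratio comparisons made.

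In the RefSeq annotation of GRCm38.p6, Ifnar2, Il10rb, Ifnar1 and Ifngr2 follow each other on chromosome 16 with no other protein-coding gene between their starts. Il10rb, which encodes a receptor chain of interleukin 10, had a log2 change of 0.32 at 24 h (adjusted p = 0.237). Ifnar2 was thus the 1 gene of these 4 that passed the test at 24 h against untreated skin. From 6 h to 24 h Il10rb rose (adjusted p = 0.0454), a call lost without each of 9 libraries (highest adjusted p 0.202, without 6 h replicate 2). Over that step Ifnar2, Ifngr2 and Ifnar1 did not pass (adjusted p = 0.098, 0.08 and 0.311). The differences between neighbours were tested only for Ifnar2 over Ifnar1. The 250 bases before the RefSeq start of Ifnar2 (chr16:91372533-91372782, plus strand, GRCm38.p6) are shown because they hold a match to the GAS letters, in capitals.
Ifnar2: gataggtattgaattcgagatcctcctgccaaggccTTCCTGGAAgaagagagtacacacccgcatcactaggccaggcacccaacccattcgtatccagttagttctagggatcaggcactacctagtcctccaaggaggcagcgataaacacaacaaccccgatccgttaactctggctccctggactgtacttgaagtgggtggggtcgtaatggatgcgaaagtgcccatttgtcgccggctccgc
The match, TTCCTGGAA, lies 214 to 206 bases before the start.

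The receptor genes of interferon gamma, Ifngr1 (probe set 10361897) and Ifngr2 (probe set 10436865), fell between 1.5 h and 6 h, and neither passed the test against untreated skin at any time. Ifngr2 measured 9.46, 9.2 and 9.46 in untreated skin and 9.79, 9.97 and 9.8 at 1.5 h. It measured 9.2, 9.24 and 9.29 at 6 h and 9.69, 9.43 and 9.83 at 24 h. Values at 1.5 h lay above all untreated and all 6 h values. Against untreated skin Ifngr2 was 1.39-fold higher at 1.5 h, with a 95% interval of 1.17 to 1.67, and missed the threshold (adjusted p = 0.0579); 7 of 25 alternatives called it, and the adjusted p ranged from 0.034 to 0.228. Between 1.5 h and 6 h it fell by 0.61 log2 units (adjusted p = 0.00661), which held in all 25 alternatives. The later difference, 24 h against 6 h, was 0.41 log2 units (adjusted p = 0.08), with no overlap of the groups.

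Ifngr1 measured 9.17, 8.94 and 8.99 in untreated skin and 9.14, 9.24 and 9.4 at 1.5 h. It measured 8.91, 8.93 and 8.78 at 6 h and 8.95, 9.06 and 9.18 at 24 h. Values at 6 h were below all those of the other 3 groups. Ifngr1 fell between 1.5 h and 6 h by 0.39 log2 units (adjusted p = 0.0352), but 10 of 25 alternatives did not call it. Among these were the fits that left out 1.5 h replicate 2 or 3 or 1 of the 6 h libraries (highest adjusted p 0.107, with 1.5 h replicate 3 left out), the fit with the replicate number as a block (0.0508) and cyclic loess, where the change was -0.25 (0.152). Both genes had their means in the same order, 6 h, untreated, 24 h and 1.5 h, and neighbours in that order did not pass the test.

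The ratio of Ifngr2 over Ifngr1 within an array was 0.29, 0.26 and 0.47 log2 units in untreated skin and 0.65, 0.73 and 0.4 at 1.5 h. These ranges overlapped, and the exact permutation test gave p = 0.2 (0.24 adjusted over 12 ratios). Glandular epithelium markers were also high at 1.5 h and 24 h, where 4 and 2 of 8 rose. These counts ran from 1 to 8 and from 0 to 7 with 1 library left out, lowest at 1.5 h without untreated replicate 3, and were 7 and 7 without the libraries high in Glycam1. At 6 h 0 of 8 passed. The summed level (log2) of these markers was 11.38, 8.94 and 8.89 in 6 h replicates 1, 2 and 3, where Ifngr2 measured 9.2, 9.24 and 9.29. The part of glandular epithelium in the Ifngr2 value was not tested. The genes most like Ifngr2 were Mapk12, a stress-activated kinase, the proteasome subunit gene Psmb7 and the phosphatase gene Acp1 (r = 0.972, 0.968 and 0.959, and 0.905, 0.891 and 0.914 within groups). Those most like Ifngr1 were Anxa1, an anti-inflammatory phospholipid-binding protein, Nme3 and Nudt14 (r = 0.944, 0.934 and 0.929, and 0.917, 0.834 and 0.835 within groups).

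Of the 3 kinase genes, Jak2 (probe set 10462363) nearly doubled at 6 h, while Jak1 (probe set 10514668) and Tyk2 (probe set 10591446) did not pass against untreated skin. Jak2, the kinase of the interferon gamma receptor and of many cytokine receptors, measured 8.06, 7.98 and 8.3 in untreated skin and 8.22, 8.15 and 7.95 at 1.5 h. It measured 9, 9.1 and 9.08 at 6 h and 8.48, 8.58 and 8.28 at 24 h. Values at 6 h were clear of all others, and those at 24 h overlapped untreated skin by 1 array. From 8.11 ± 0.17 to 9.06 ± 0.06 (SD, n = 3), Jak2 rose 1.93-fold at 6 h, with a 95% interval of 1.62 to 2.31 (adjusted p = 0.000186). It then fell by 0.61 log2 units to 24 h (adjusted p = 0.0157), a call lost when 6 h replicate 2 (adjusted p = 0.0801), 6 h replicate 3 (0.0537) or 24 h replicate 3 (0.0761) was left out. At 24 h it stood 1.26-fold above untreated skin, with a 95% interval of 1.06 to 1.51 (adjusted p = 0.164). The order of its means was 1.5 h, untreated, 24 h and 6 h, and only the step from 24 h to 6 h passed between neighbours.

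Jak1, which serves both receptors, lay between 9.94 and 10.29 in all arrays. Its changes were 0.0068, 0.09 and 0.06 log2 units at the 3 times, with 95% intervals that reached from -0.23 to 0.33 (adjusted p = 0.983, 0.634 and 0.829). Within an array, the log2 ratio of Jak2 over Jak1 was -2.02, -2.03 and -1.9 in untreated skin and -1.29, -0.95 and -1.13 at 6 h. This ratio rose by 0.86 log2 units without overlap (exact permutation p = 0.1, the smallest possible, and 0.2 adjusted over 12 ratios). At 24 h it was -1.7, -1.67 and -1.75, also clear of untreated skin, a change of 0.27 with the same p-values. Clic4, an intracellular chloride channel protein, Helz2, a helicase and nuclear receptor coactivator, and Cd69, an early activation marker of lymphocytes, were most like Jak2 over the 12 arrays (r = 0.983, 0.975 and 0.974). Within groups, after subtracting group means, they gave r = 0.78, 0.664 and 0.644.

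Tyk2, the kinase of IFNAR1, measured 7.05, 6.9 and 6.81 in untreated skin and 6.83, 6.55 and 6.47 at 1.5 h. It measured 7.09, 7.16 and 6.88 at 6 h and 7.09, 7.11 and 6.9 at 24 h. Lowest were the values of 1.5 h, which overlapped untreated skin by 1 array. Its change at 1.5 h was -0.3 log2 units, with a 95% interval of -0.57 to -0.03 (adjusted p = 0.23). Tyk2 rose 1.34-fold from 1.5 h to 6 h (adjusted p = 0.0402), and 10 of 25 alternatives did not call it. They include the fits that left out untreated replicate 2, 1.5 h replicate 2 or 3, or 6 h replicate 1 or 2 (highest adjusted p 0.149, with 6 h replicate 2 left out) and arrays centred on their medians (0.101). In the order 1.5 h, untreated, 24 h and 6 h, no neighbours passed the test.

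The largest changes among the 9 genes were those of Stat2 (probe set 10367224) and Irf9 (probe set 10415319), which are partners in ISGF3. Stat2 measured 7.47, 7.35 and 7.56 in untreated skin and 7.45, 7.13 and 7.13 at 1.5 h. It measured 9.97, 10.0 and 9.58 at 6 h and 9.2, 9.54 and 9.07 at 24 h. Every 6 h array exceeded every 24 h array, and both groups lay far above the other 2, which overlapped. Stat2 rose 5.23-fold at 6 h, with a 95% interval of 4.18 to 6.55, from 7.46 ± 0.11 to 9.85 ± 0.23 (SD, n = 3, adjusted p = 2e-07). At 24 h it stood at 9.27 ± 0.24, 3.5-fold above untreated skin, with an interval of 2.79 to 4.38 (adjusted p = 5.37e-06). At 1.5 h its change was -0.23, with an interval of -0.55 to 0.1 (adjusted p = 0.464).

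Irf9 measured 6.94, 7.08 and 7.06 in untreated skin and 7.0, 7.18 and 7.03 at 1.5 h. It measured 8.28, 8.22 and 8.14 at 6 h and 7.97, 7.97 and 8.04 at 24 h. As for Stat2, the groups at 6 h and 24 h did not overlap each other or the earlier arrays. Irf9 rose 2.28-fold at 6 h, with a 95% interval of 1.98 to 2.62, from 7.02 ± 0.07 to 8.21 ± 0.07 (SD, n = 3, adjusted p = 1.9e-06). It stood at 7.99 ± 0.04 at 24 h, 1.96-fold above untreated skin, with an interval of 1.7 to 2.26 (adjusted p = 2.32e-05). The change at 1.5 h was 0.05, with an interval of -0.16 to 0.25 (adjusted p = 0.848).

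All calls of Stat2 and Irf9 at 6 h and 24 h against untreated skin held in the 25 alternatives, with adjusted p up to 0.00123 for Stat2 and 0.000451 for Irf9. From 1.5 h to 6 h Stat2 rose 6.11-fold and Irf9 2.21-fold (adjusted p = 1.81e-07 and 3.28e-06). Between 6 h and 24 h the changes were -0.58 for Stat2 and -0.22 for Irf9, and neither passed (adjusted p = 0.0534 and 0.215). Stat2 passed there in 8 of 25 alternatives, with adjusted p between 0.0272 and 0.218. In the order of their means, the step from the 2 early groups to 24 h was the 1 step between neighbours that passed in either gene.

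By measured values, each from its own probe set, Stat2 rose more than Irf9 at 6 h and 24 h. Within an array their log2 ratio was 0.53, 0.27 and 0.51 in untreated skin and 0.46, -0.06 and 0.1 at 1.5 h. The 6 h arrays gave 1.69, 1.78 and 1.44, and the 24 h arrays gave 1.23, 1.56 and 1.03. The ratio rose by 1.2 log2 units at 6 h and 0.84 at 24 h, without overlap with untreated skin. The exact permutation test gave p = 0.1 for each, the smallest possible, and 0.2 adjusted over 12 ratios.

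**Figure D3:**
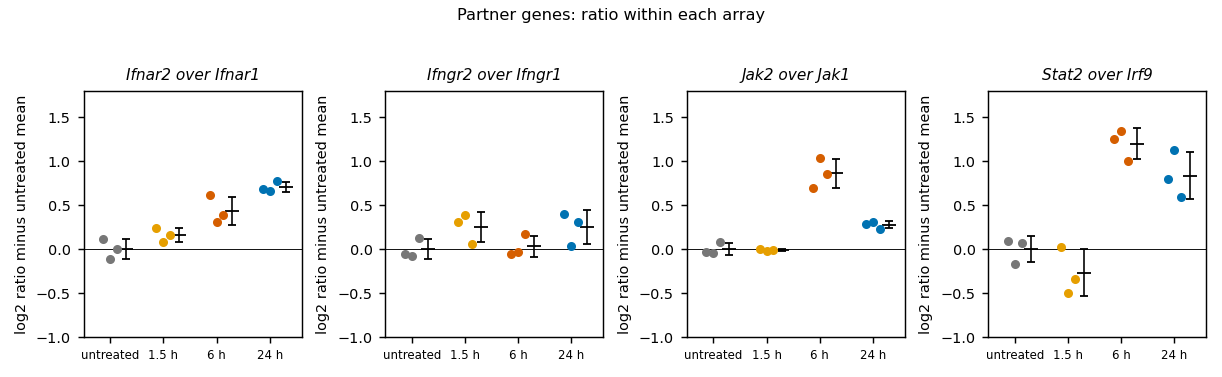
Log2 ratio of 2 partner genes within each array minus its untreated mean (vertical axis), by group (horizontal axis); points are arrays, black marks the mean and SD of 3. Ifnar2 over Ifnar1 rises to 0.7 at 24 h, Jak2 over Jak1 to 0.86 at 6 h and Stat2 over Irf9 to 1.2 at 6 h, while the mean of Ifngr2 over Ifngr1 changes by 0.25, 0.03 and 0.25 at the 3 times.

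Since Stat2 and Irf9 rose together, the 250 bases before each RefSeq start (GRCm38.p6, plus strand) are shown, from chr10:128270248-128270497 for Stat2 and from chr14:55603735-55603984 and chr14:55604329-55604578 for the 2 starts of Irf9. Capitals mark a match to the ISRE letters GAAANNGAAA, searched on both strands.
Stat2: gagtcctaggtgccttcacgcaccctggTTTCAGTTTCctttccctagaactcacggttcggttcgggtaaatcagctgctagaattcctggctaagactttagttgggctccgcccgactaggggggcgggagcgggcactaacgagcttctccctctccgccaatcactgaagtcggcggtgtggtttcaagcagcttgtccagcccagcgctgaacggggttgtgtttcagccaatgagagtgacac
Irf9 first start: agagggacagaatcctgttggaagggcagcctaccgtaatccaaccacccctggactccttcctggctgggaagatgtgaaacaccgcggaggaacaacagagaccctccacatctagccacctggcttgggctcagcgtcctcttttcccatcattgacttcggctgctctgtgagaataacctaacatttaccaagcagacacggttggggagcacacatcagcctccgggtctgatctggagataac
Irf9 second start: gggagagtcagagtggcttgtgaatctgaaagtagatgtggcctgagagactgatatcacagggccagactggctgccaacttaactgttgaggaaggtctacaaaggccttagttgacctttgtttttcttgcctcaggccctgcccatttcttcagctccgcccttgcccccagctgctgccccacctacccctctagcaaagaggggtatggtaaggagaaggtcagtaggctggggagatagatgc
Stat2 holds 1 such match, read as TTTCAGTTTC on the strand shown, 222 to 213 bases before its start. Of the 10 windows of the 9 genes this was the only one with a match, against 2.98% of 32851 promoter windows of that length. The GAS letters TTCNNNGAA, which read the same on both strands, matched in 1 of the 10, that of Ifnar2, against 7.02% of all windows. A match is a description of letters and no evidence of binding.

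The genes most like Stat2 over the 12 arrays were Parp12 and Parp9, interferon-inducible members of the ADP-ribosyltransferase family, and Herc6, a ubiquitin-type ligase (r = 0.994, 0.994 and 0.993). With group means subtracted they gave r = 0.87, 0.808 and 0.826. For Irf9 they were Spats2l, Oas1a, an antiviral oligoadenylate synthetase, and Parp12 again (r = 0.989, 0.987 and 0.985), with r = 0.623, 0.458 and -0.1 within groups. Stat2 and Irf9 gave r = 0.976 over the 12 arrays and -0.11 within groups, so their likeness lay in the group means. Tyk2 was most like Prpf38b, Klrb1f and Rsrp1 (r = 0.917, 0.913 and 0.881), Ifnar1 most like Ssr2, Hfe and Emp3 (r = 0.899, 0.888 and 0.885), and Jak1 most like Clint1, Esyt1 and Slfn5os (r = 0.874, 0.84 and 0.835). The genes with r over 0.9, predicted genes included, numbered 227 for Stat2, 193 for Irf9, 135 for Jak2 and 110 for Ifngr2. They numbered 63 for Ifnar2 and 11 for Ifngr1, so the genes named are the top of larger sets.

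Ifnb1, the gene of interferon beta, was highest at 1.5 h. It measured 3.32 to 3.59 in untreated skin, 7.34 to 8.1 at 1.5 h, 5.87 to 5.96 at 6 h and 4.23 to 4.53 at 24 h, and rose at all 3 times (adjusted p = 1.37e-08, 2.82e-07 and 0.00312). The untreated values lie at the low end of the scale, so folds are given as lower bounds with values below 4 raised to 4: at least 13.6-, 3.75- and 1.32-fold higher. With that floor the rises at 1.5 h and 6 h passed in limma and the one at 24 h did not (adjusted p = 0.000124, 0.000298 and 0.282). Ifna4, an interferon alpha gene, rose at 1.5 h (adjusted p = 0.00535) from 3.29 to 3.38 in untreated skin to 4.58 to 6.31, at least 2.69-fold by the same bound, and did not pass at 6 h (4.04 to 4.62). With the floor the rise of Ifna4 did not pass (adjusted p = 0.108). Of 15 interferon genes measured, 2 rose at 1.5 h and 1 at each later time, where the count at 6 h was 1 to 3 with 1 library left out and 2 without the libraries high in Glycam1. The log2 change of Ifng was -0.13, 0.51 and 0.39 at the 3 times and did not pass (adjusted p = 0.746, 0.0869 and 0.249). Every 1.5 h array of Ifnb1 exceeded every 6 h array, and those exceeded every 24 h array, while the 1.5 h arrays of Stat2, Irf9 and Jak2 overlapped untreated skin.

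**Figure D4:**
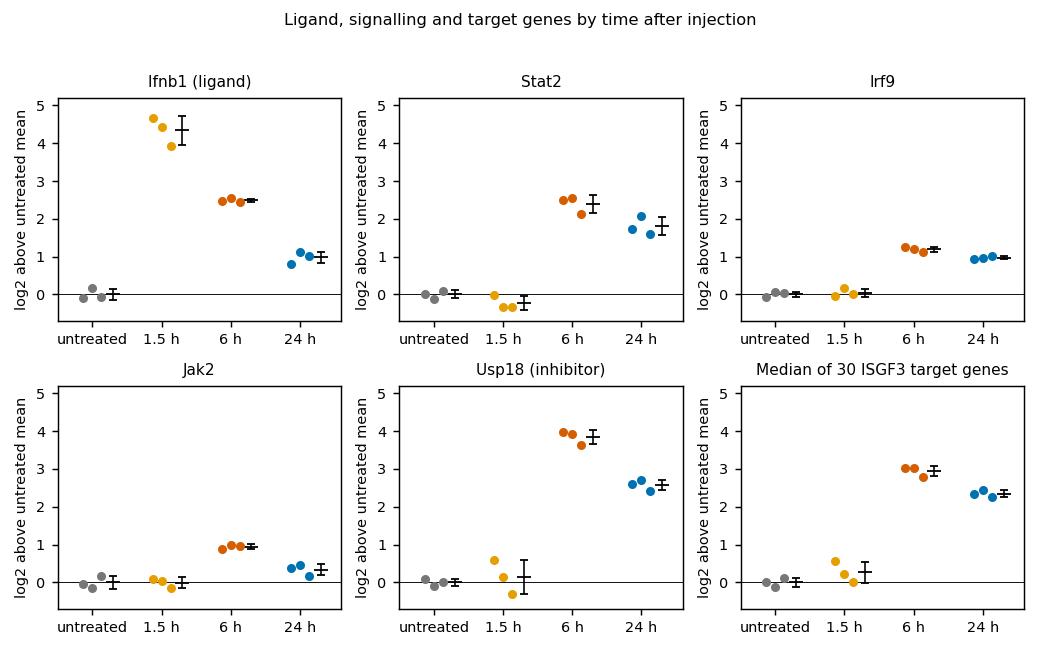
Log2 level above the untreated mean (vertical axis) of the ligand gene Ifnb1, of Stat2, Irf9 and Jak2, of the inhibitor Usp18 and of the median of 30 ISGF3 target genes, in each array by group (horizontal axis); points are arrays, black marks the mean and SD of 3. Ifnb1 is highest at 1.5 h, and the other 5 panels are highest at 6 h.

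Other genes of the pathway were taken from lists drawn up with earlier results of these data known. Of 5 other JAK and STAT genes measured, 1 rose and 4 did not pass at 6 h (median 0.25, all genes -0.04). Stat3, the main factor of interleukin 6 signalling, rose 1.62-fold at 6 h (adjusted p = 0.00685). At 24 h 1 of 5 rose: Stat4, the factor of interleukin 12 signalling in natural killer and T cells (adjusted p = 0.011), from 3.02 to 3.14 in untreated skin to 4.38 to 4.95. That is at least 1.61-fold with values below 4, the low end of the scale, raised to 4, where the rise did not pass (adjusted p = 0.101). The call was also lost without 24 h replicate 3 (adjusted p = 0.0652), and the natural killer markers above were higher at the same time. At 1.5 h 0 of 5 passed in limma, and the changes ran from -0.14 to 0.55.

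Of 7 further receptor genes of the interferon receptor family, Il10ra, the ligand-binding chain for interleukin 10, rose 3.56-fold at 6 h and 2.13-fold at 24 h (adjusted p = 4.99e-05 and 0.00656), and 6 did not pass at either time. Ifnlr1, the receptor chain for interferon lambda, had changes of 0.15, 0.1 and 0.003 log2 units at 1.5 h, 6 h and 24 h (adjusted p = 0.562, 0.629 and 0.993). Among 19 other receptors that signal through JAKs, 5 rose and 14 did not pass at 6 h and again at 24 h (medians 0.3 and 0.27). These counts were 3 to 5 and 2 to 6 with 1 library left out, lowest without untreated replicate 2, and 5 and 6 without the libraries high in Glycam1. At 6 h the largest were Il15ra (2.65-fold, adjusted p = 2.92e-06), Osmr, the oncostatin M receptor (2.28-fold), and Csf3r, the G-CSF receptor of neutrophils (2.18-fold). At 24 h they were Il2rb, a chain of the interleukin 2 and 15 receptors on natural killer and T cells (4.09-fold, adjusted p = 9.45e-06), Csf3r (1.97-fold) and Il12rb1 (1.79-fold, a call lost when replicate 2 or 3 of untreated skin or of 24 h was left out; highest adjusted p 0.15). Lepr, the leptin receptor, fell by 0.87 at 1.5 h (adjusted p = 0.022), a call that held without untreated replicate 1 and was lost without each of the other 5 libraries compared (highest adjusted p 0.0978), and 0 receptors passed at 1.5 h without the libraries high in Glycam1.

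Inhibitors of the pathway rose in 4 of 21 cases at 6 h and 17 did not pass (median -0.05, all genes -0.04). Usp18, which binds IFNAR2 and blocks its signalling, rose 14.4-fold at 6 h (adjusted p = 1.98e-08) and 5.97-fold at 24 h (adjusted p = 1.15e-06). Socs3 and Socs1, which block JAK kinases, rose 2.32- and 2.07-fold at 6 h (adjusted p = 0.00415 and 9.51e-05). Socs3 was also the 1 inhibitor of 21 that rose at 1.5 h, 1.88-fold (adjusted p = 0.0477), a call lost without each of 9 libraries (highest adjusted p 0.148, with 1.5 h replicate 2 left out). At 24 h 3 of 21 rose, Usp18, Ptprc and the leukocyte phosphatase gene Ptpn6 (1.6-fold, adjusted p = 0.0448, lost without each of 8 libraries, highest adjusted p 0.176 with 24 h replicate 3 left out). Without the libraries high in Glycam1 the counts were 1, 4 and 4 at the 3 times. Of 8 STAT partners and coactivators Nmi and Ifi35, interferon-inducible proteins that bind each other, rose 4.25- and 3.78-fold at 6 h and 3.96- and 3.14-fold at 24 h, and 6 did not pass. The coactivator genes Crebbp and Ep300 had changes of -0.05 and -0.15 at 6 h (adjusted p = 0.849 and 0.537).

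Genes listed as targets of the pathway can be set beside Stat2 and Irf9. Which factor drove them in these samples was not tested. Of 30 ISGF3 target genes 6 rose at 1.5 h (5 to 8 with 1 library left out), most of all Ifit1 (6.21-fold), Rsad2 (4.05-fold) and Mx2 (3.27-fold), with Stat2 and Irf9 not past the test at that time. At 6 h and at 24 h all 30 rose, by medians of 2.97 and 2.37 log2 units beside -0.04 and 0.00075 over all genes, and the counts were the same without the libraries high in Glycam1. The largest at 6 h were Rsad2 (67.3-fold), Mx2 (42.7-fold) and Ifit1 (34.9-fold). At 24 h they were Rsad2 (15.1-fold), Ifit3 (13.3-fold) and Irf7 (13.1-fold). Of the 30, 18 fell between 6 h and 24 h, 1 rose and 11 did not pass. The gene that rose was Bst2, a membrane tether of viruses, a call lost without 6 h replicate 2 or 3 or 24 h replicate 1 or 3. The median of the 30 above untreated skin was 0.56, 0.21 and 0.02 in the arrays of 1.5 h, highest in the one high in Glycam1, 3.02, 3.03 and 2.78 at 6 h, and 2.34, 2.44 and 2.25 at 24 h. Of 17 interferon gamma targets 2 rose at 1.5 h, Irf1 (1.84-fold) and Irgm1 (1.75-fold, lost without each of 5 libraries), and 13 rose at each later time with 4 not past the test, namely Ciita, H2-Aa, H2-Ab1 and Ido1. The count at 1.5 h was 1 without the libraries high in Glycam1. Cxcl9, a chemokine that attracts activated T cells, rose 18.6-fold at 6 h and 19.4-fold at 24 h, and Iigp1, a GTPase against intracellular microbes, rose 11.2- and 8.56-fold. Gbp5 rose 16.1-fold at 6 h and Gbp3 rose 8.69-fold at 24 h. Many of these target genes answer to both kinds of interferon.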

How the data were processed

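Skin samples were measured on 12 Affymetrix Mouse Gene 1.0 arrays. The authors deposited log2 intensities, for which the submitters' processing notes name RMA and Expression Console 1.1; no genome build is stated, and no detection call was used. Of 35556 probe sets, 21789 carried 1 gene symbol in the platform annotation, 1621 several and 12146 none. A gene with several probe sets is represented by that of the highest mean, giving 19938 genes. The deposited arrays keep different medians (5.53 to 5.76), so a change depends on how arrays are scaled, and RMA values compress changes of dim and very bright probe sets. The number of arrays limits the precision.

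limma 3.58.1 (lmFit, then eBayes) in R 4.3.3 fitted the 4 groups in 1 model (8 residual and 5.24 prior degrees of freedom). Changes are the first group minus the second, tests are two-sided, and intervals are 95% from the fit. Ratios of 2 genes within an array were compared by exact permutation of the samples. The bounds of Ifnb1, Ifna4 and Stat4 at a floor of 4 were added after the data were seen. The steps were tested on simulated data with independent noise for each gene and changes set only at 6 h. Shifts in tissue content shared by many genes were not simulated, so that test cannot speak to them. The labels do not say whether samples of a number share a day or cage, and the 18 same-number correlations of deviations from the group means ran from -0.215 to 0.334, with 4 above 0.1, so the numbers were not taken as pairs. Promoters came from RefSeq (GRCm38.p6), where all 9 genes matched, and the motif letters were searched in the 250 bases before each start. Of 284 listed genes 257 were measured. All 9 members are named, with the 3 called genes of largest change in each list and comparison with untreated skin and the largest called the other way, and the 3 genes with the highest Pearson r with each member, predicted genes skipped. Bst2, Glycam1, Krt5, Krt10, Ptprc as a leukocyte marker, and list genes named though not called are outside this rule and were picked with their values known. The members, lists and tests were chosen with earlier results of these data known.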

Additional observations from a re-analysis of the deposited data

Results flagged for a closer look

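The change of a gene differed between times by a direct limma test in 10 cases, with p adjusted over all 19938 genes. From 1.5 h to 6 h the log2 difference was 2.61 for Stat2, 1.14 for Irf9, 0.96 for Jak2, 0.43 for Tyk2, -0.39 for Ifngr1 and -0.61 for Ifngr2. From 6 h to 24 h it was -0.61 for Jak2. From 1.5 h to 24 h it was 2.03 for Stat2, 0.92 for Irf9 and 0.62 for Ifnar2. Among the genes called from 1.5 h to 6 h, the sign of the difference thus parted the interferon gamma receptor genes from Stat2, Irf9, Jak2 and Tyk2. The calls of Ifngr1 and Tyk2 were each lost in 10 of 25 alternatives. Of the uncalled genes, Ifnar1 differed by -0.12, Jak1 by 0.09 and Ifnar2 by 0.15. Groups of 3 are too small for the check on outlying samples.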

How the results depend on the processing

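The 9 genes were refitted under 25 alternatives, which gave 1350 values of a change in 1 comparison. Of these 1262 kept their direction and their side of the threshold, 35 lost a call, 21 gained one and 32 changed sign. The count of genes that rose at 6 h (3) was the same under every alternative, also with the replicate block, and the block ended 1 call of the 9 genes, Ifngr1 from 1.5 h to 6 h.

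The count at 1.5 h was 0, 0 to 1 with 1 library left out, and 1 (Ifngr2) with median centring, cyclic loess, the dim filter, an intensity trend or array weights. From 6 h to 24 h the count was 1, 0 to 3 with 1 library left out, 0 at an adjusted p under 0.01, and 2 with median centring, quantile normalization, cyclic loess, the dim filter, an intensity trend, robust variance or without the libraries high in Glycam1, an alternative added after the data were seen. The count by the F test was 5, and 3 at an adjusted p under 0.01. Over all genes the counts at 1.5 h, 6 h and 24 h against untreated skin were 439, 1215 and 670, and 41 to 696, 540 to 1703 and 361 to 866 over the alternatives that leave out no single library. With 1 library left out they were 97 to 597, 712 to 1364 and 423 to 756. From 1.5 h to 6 h 2646 changed (767 to 4609, and 949 to 2951 with 1 library left out), from 6 h to 24 h 685 (149 to 1133 and 142 to 877), from 1.5 h to 24 h 580 (309 to 753 and 321 to 653), and at any time 2274 (733 to 3386 and 1189 to 2409).

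Each value that changed sign was uncalled before and after. With 1 library left out, Jak1 at 1.5 h ran from -0.042 to 0.088, Ifnar1 from -0.074 to 0.064, Jak2 from -0.074 to 0.085 and Irf9 from -0.012 to 0.082. Ifngr1 at 24 h ran from -0.031 to 0.098. From 1.5 h to 24 h Ifnar1 ran from -0.0027 to 0.136 and Jak1 from -0.026 to 0.116, and from 6 h to 24 h Jak1 ran from -0.095 to 0.0298 and Tyk2 from -0.091 to 0.0598. With median centring Ifnar1 and Jak2 at 1.5 h were 0.085 and 0.094, Jak1 from 1.5 h to 6 h was -0.047, and Jak1 and Tyk2 from 6 h to 24 h were 0.0598 and 0.084. At 1.5 h Ifnar1 and Jak1 were 0.023 and -0.028 with quantile normalization and 0.017 and -0.0075 with cyclic loess. With array weights Ifngr1 at 24 h was -0.0084, and Jak1 and Tyk2 from 6 h to 24 h were 0.00053 and 0.021. Without the libraries high in Glycam1, Jak1 at 1.5 h was -0.042, and Jak1 and Tyk2 from 6 h to 24 h were 0.018 and 0.017. The cause was not tested.

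Median centring shifted all changes at 1.5 h by 0.1 and those from 1.5 h to 6 h by -0.13. The share of higher among called genes at 1.5 h was 27.8% as deposited and 56.9%, 43.2% or 34.7% with median centring, quantile normalization or cyclic loess. At 6 h it was 55.5%, 48.4%, 59.6% or 69.4%, and from 1.5 h to 6 h 41.2%, 16.5%, 35.5% or 55%. From 6 h to 24 h it was 59%, 80.2%, 56.2% or 44%. With 3 arrays a group, small changes such as those of Ifngr1 and Tyk2 sit near the threshold.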
